A study of Mus musculus with 9 samples.

Results

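Transcripts of 9 transcription factors that establish and hold hepatocyte identity were measured in liver tissue of wild-type mice and of mice deficient in O-GlcNAc transferase (OGT), the enzyme that places N-acetylglucosamine on nuclear and cytoplasmic proteins. The factors are Hnf4a, Foxa1, Foxa2, Foxa3, Cebpa, Cebpb, Onecut1, Onecut2 and Prox1, listed by name for their known role in the liver. Earlier results of these data were known when the factors were chosen. All 9 were among the 24421 gene symbols with a read count in every library. The 9 libraries came from 5-week-old C57BL/6J mice of both sexes fasted for 6 h: 5 wild-type littermates (WT 1 to 5) and 4 mice labelled OGT-deficient (OGT-deficient 1 to 4). The labels name the tissue only as liver, with no sorting of cells, so every value averages over its cell types. How OGT was deleted, in which cells, and which sex each mouse had is information not given in the sources used here.

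Hepatocytes owe their character to a small set of DNA-binding proteins that bind each other's genes and many liver genes together. Forkhead box A proteins open chromatin early in liver development, the nuclear receptor HNF4A and the leucine zipper protein C/EBPα then drive metabolic and secretory genes, and the ONECUT proteins and PROX1 act in the emergence and outgrowth of the liver bud. HNF4A and C/EBPα are scarce in bile duct and stellate cells.

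The libraries held 32337861 to 54130901 counts assigned to genes. Ogt itself was 61.6 ± 10.4 CPM (read counts scaled to library size; SD, n = 5) in WT and 16.9 ± 2.70 CPM (SD, n = 4) in OGT-deficient liver, a log2 fold change of -1.86 with no overlap between the groups. Alignments to more than 1 place, which enter no gene count, numbered 16167401 to 35276937 in WT libraries and 7997176 to 9317390 in OGT-deficient libraries. Hepatocyte markers were abundant in every library, with a summed level of 117329 to 139523 CPM in WT and 53962 to 70530 CPM in OGT-deficient liver. In bulk tissue, fewer cells of a type and less RNA per cell cannot be told apart.

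Transcripts of 8 of the 9 factors fell in OGT-deficient liver and none rose, at an adjusted p under 0.05 (edgeR quasi-likelihood test, Benjamini-Hochberg over 14104 genes). The ninth, Onecut1, did not pass. The median log2 fold change over the 9 was -0.89, against 0.02 over all tested genes. The change in the liver as a whole was broad: 61.1% of tested genes were called, 29.4% lower and 31.6% higher, so that a call by itself is common here. For Foxa3, Cebpa and Prox1 all 4 OGT-deficient libraries lay below all 5 WT libraries, which was so for 25% of all tested genes. In either direction the groups separated for 51.3% of tested genes, and for 26.2% they were higher in OGT-deficient liver. In the other 6 factors the groups overlapped.

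**Figure D1:**
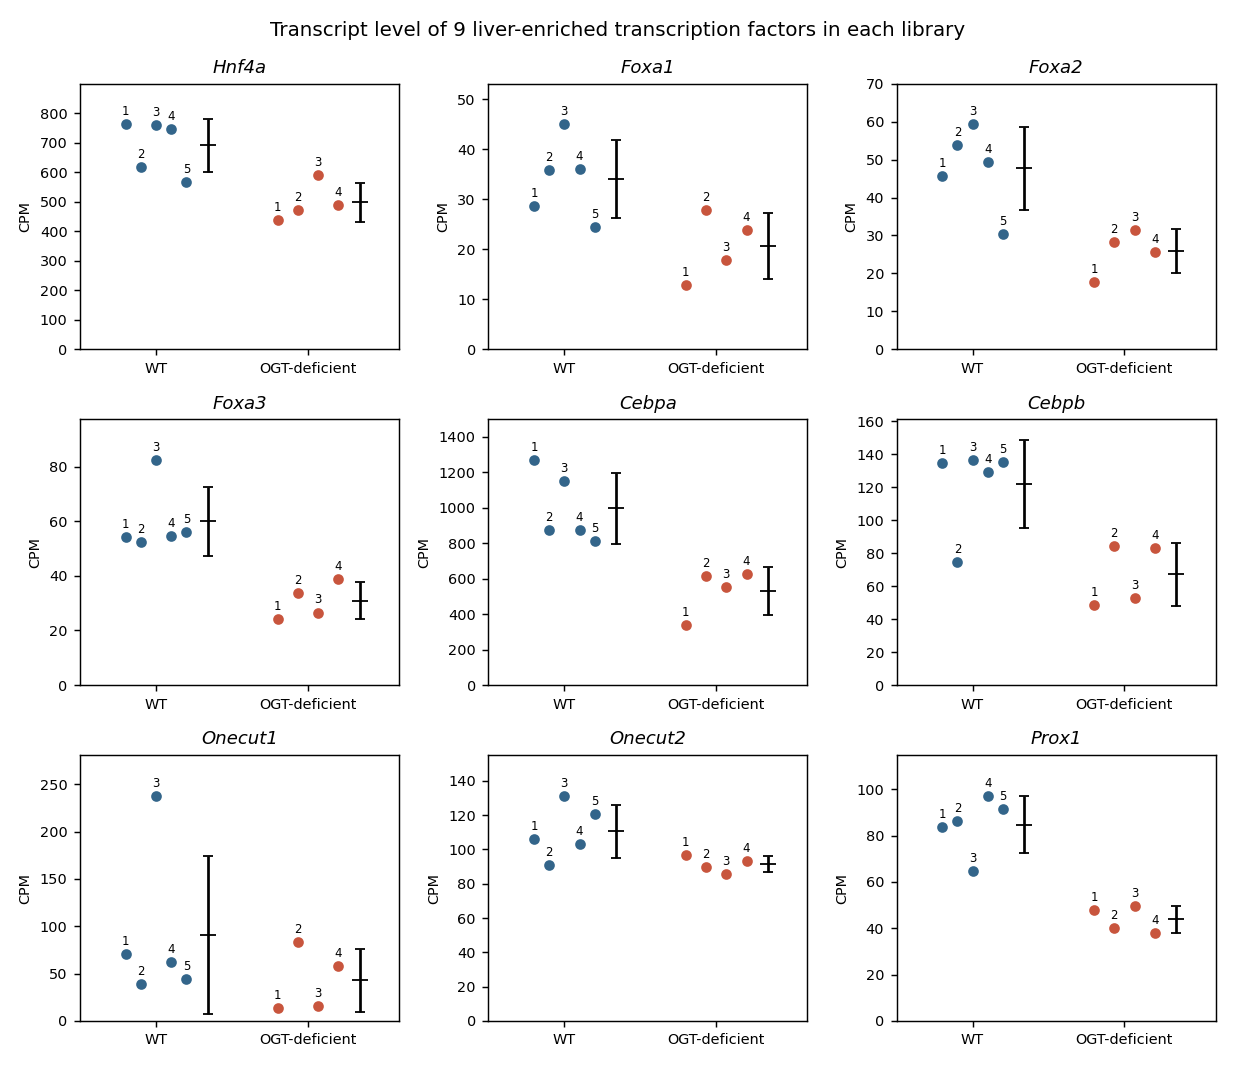
Transcript level (CPM) of each of the 9 factors in the 5 WT (blue) and 4 OGT-deficient (red) libraries, each point a library marked with its number, with the group mean and SD as a bar. Foxa3, Cebpa and Prox1 separate the groups completely, Onecut1 spreads from 13.97 to 237.9 CPM, and the Onecut2 groups differ least.

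Compared per length of their exons, the factors kept nearly the same order in both groups. Cebpa led with 378 ± 76.4 CPM per kilobase of exon in WT (SD, n = 5) and 202 ± 51.2 in OGT-deficient liver (SD, n = 4). Hnf4a followed with 143 ± 18.9 and 103 ± 13.6, then Cebpb with 81.2 ± 17.7 and 44.7 ± 12.7, and Foxa3 with 29.4 ± 6.20 and 15.1 ± 3.32. The WT ranges of these 4 did not overlap one another. Onecut1 came after them (22.1 ± 20.2 in WT), and its WT range of 9.40 to 57.8 spanned that of Foxa3 and reached into that of Cebpb. Foxa2 (20.2 ± 4.63), Foxa1 (10.2 ± 2.36), Prox1 (10.1 ± 1.46) and Onecut2 (6.81 ± 0.965) followed, and each overlapped the next in its WT range. In OGT-deficient liver Foxa2 (10.9 ± 2.46) and Onecut1 (10.4 ± 8.19) changed places within overlapping ranges, as did Onecut2 (5.62 ± 0.289) and Prox1 (5.23 ± 0.702).

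Since these genes moved largely in the same direction, the DNA just before their starts is shown for 5 starts where a searched motif was present. The sequences are the 250 bases before the start, from RefSeq on GRCm38.p6, 5′ to 3′ on the gene's strand, with motif letters in capitals. The first 2 are the start of Hnf4a at chr2:163546905-163547154 (plus strand), with the HNF1 half-site GTTAAT read on the opposite strand in tandem, and that of Foxa2 at chr2:148046970-148047219 (minus strand), with the ONECUT motif ATTGAT. Next is Foxa1 at chr12:57546112-57546361 (minus strand), with the FOXA motif TGTTTAC on the opposite strand. After it come Foxa3 at chr7:19023540-19023789 (minus strand) and Cebpa at chr7:35119043-35119292 (plus strand), both with TATAAA close to the start and Cebpa also with the C/EBP half-site TTGCGC.
Hnf4a: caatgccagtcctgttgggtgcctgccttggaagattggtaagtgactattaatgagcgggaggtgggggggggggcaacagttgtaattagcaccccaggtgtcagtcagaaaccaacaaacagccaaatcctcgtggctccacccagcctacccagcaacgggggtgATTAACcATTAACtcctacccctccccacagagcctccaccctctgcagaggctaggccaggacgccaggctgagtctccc
Foxa2: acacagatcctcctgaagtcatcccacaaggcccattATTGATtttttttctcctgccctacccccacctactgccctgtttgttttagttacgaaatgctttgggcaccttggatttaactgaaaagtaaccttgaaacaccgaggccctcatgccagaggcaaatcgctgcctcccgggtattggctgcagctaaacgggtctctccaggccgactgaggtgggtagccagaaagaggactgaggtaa
Foxa1: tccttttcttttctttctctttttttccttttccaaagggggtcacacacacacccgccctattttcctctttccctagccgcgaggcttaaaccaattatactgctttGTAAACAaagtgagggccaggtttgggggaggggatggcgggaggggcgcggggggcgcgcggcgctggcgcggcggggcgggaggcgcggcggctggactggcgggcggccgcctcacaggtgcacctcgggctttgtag
Foxa3: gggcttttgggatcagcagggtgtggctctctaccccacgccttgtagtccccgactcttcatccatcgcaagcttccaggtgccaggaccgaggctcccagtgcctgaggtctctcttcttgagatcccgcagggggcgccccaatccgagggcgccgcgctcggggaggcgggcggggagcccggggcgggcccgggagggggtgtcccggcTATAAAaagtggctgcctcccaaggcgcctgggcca
Cebpa: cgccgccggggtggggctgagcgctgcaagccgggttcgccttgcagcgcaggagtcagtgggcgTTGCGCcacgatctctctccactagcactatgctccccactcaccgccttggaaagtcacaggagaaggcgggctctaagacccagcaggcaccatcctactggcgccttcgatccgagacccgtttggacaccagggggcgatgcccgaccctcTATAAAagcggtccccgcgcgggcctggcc
The capitals begin 81 and 74 bases before the Hnf4a start, 213 before that of Foxa2, 141 before that of Foxa1, 36 before that of Foxa3, and 185 and 30 before that of Cebpa.

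The RefSeq table held 12 starts for 8 of the 9 factors. The searched letters are short, and each was also present in a share of all 32851 promoter windows of the same length: TGTTTAC in 3.17%, ATTGAT in 6.72%, GTTAAT in 6.43% and TTGCGC in 5.34% on either strand, and TATAAA in 7.59% on the gene's strand. Other starts of Hnf4a and Foxa2 held ATTGAT and GTTAAT, 1 match each. None of the 12 held the second FOXA motif TATTTAC on either strand. The same was so for the second ONECUT motif ATCGAT, for the full C/EBP motif TTGCNNAA and for the HNF4 letters CAAAGTCC. The window before Cebpb was 81.6% G and C and that before Onecut1 71.6%, against a median of 52.4% over all windows. A match is a description of the letters and not evidence of binding.

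Hnf4a, the nuclear receptor that maintains the adult hepatocyte program, lies at chr2:163506808-163572910 on the plus strand (GRCm38), with 10 exons in its longest coding transcript. WT 1 to 5 gave 762.5, 617.3, 758.0, 745.7 and 567.2 CPM, and OGT-deficient 1 to 4 gave 436.8, 473.1, 589.6 and 489.0 CPM. OGT-deficient 3 stood above WT 5, and the other 3 OGT-deficient libraries were below every WT library. The mean fell from 690 ± 91.3 (SD, n = 5) to 497 ± 65.4 CPM (SD, n = 4), 72.0% of WT, and the log2 fold change was -0.47 ± 0.12 (SE), with an adjusted p of 0.0042. Of the 8 factors called lower, only Onecut2 had a smaller change in size, though the differences between factors were not tested. With library totals alone as the scaling, the Hnf4a change was -0.13 and was not called.

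Its antisense neighbour Hnf4aos, a non-coding gene on the opposite strand at chr2:163493807-163541720, shares no exonic base with another listed gene. WT 1 to 5 held 1.28, 3.70, 3.09, 6.87 and 5.07 CPM of it, and OGT-deficient 1 to 4 held 1.03, 0.555, 1.52 and 1.13 CPM. It fell by 1.89 ± 0.42 on the log2 scale (SE; adjusted p = 0.00183), and OGT-deficient 3 overlapped WT 1.

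The FOXA proteins are pioneer factors that can bind closed chromatin. All 3 genes fell. Foxa1, with 2 exons at chr12:57540628-57546916 on the minus strand, showed 28.69, 35.75, 44.99, 36.07 and 24.47 CPM over WT 1 to 5. OGT-deficient 1 to 4 gave 12.79, 27.77, 17.78 and 23.87 CPM, and OGT-deficient 2 stood above WT 5. Its means of 33.99 ± 7.86 (SD, n = 5) and 20.6 ± 6.61 CPM (SD, n = 4) gave -0.73 ± 0.22 (SE) on the log2 scale, with an adjusted p of 0.0106, the widest relative error among the 3. With library totals alone its change was -0.40 and was not called.

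Foxa2, which also acts in fasting lipid metabolism, lies at chr2:148042877-148046969 on the minus strand. Its level was 45.71, 53.93, 59.36, 49.38 and 30.4 CPM over WT 1 to 5, and OGT-deficient 1 to 4 gave 17.83, 28.18, 31.53 and 25.68 CPM. WT 5 was the low WT library, and without it the groups would not touch. The mean went from 47.8 ± 10.96 (SD, n = 5) to 25.8 ± 5.83 CPM (SD, n = 4), 54.0% of WT, and the log2 fold change was -0.89 ± 0.19 (SE), with an adjusted p of 0.00138.

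Foxa3, the most abundant of the 3 per exon length in both groups, lies at chr7:19013284-19023538 on the minus strand. In CPM, WT 1 to 5 gave 54.13, 52.42, 82.42, 54.59 and 56.16, and OGT-deficient 1 to 4 gave 24.05, 33.77, 26.56 and 38.87. WT 3 stood apart from the other 4 WT libraries, and no OGT-deficient library reached the lowest WT value. The log2 fold change was -0.96 ± 0.16 (SE; adjusted p = 0.000269), from 59.9 ± 12.6 (SD, n = 5) to 30.8 ± 6.77 CPM (SD, n = 4).

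C/EBPα and C/EBPβ are leucine zipper proteins that can bind the same sites: the former drives metabolic genes in quiescent hepatocytes, and the latter takes part in the acute-phase response and in regeneration. Cebpa is a gene of 1 exon at chr7:35119293-35121928 on the plus strand. WT 1 to 5 gave 1268, 870.8, 1152, 873.6 and 813.2 CPM, and OGT-deficient 1 to 4 gave 335.4, 616.1, 553.7 and 624.1 CPM. OGT-deficient 1 was far below its group and the 2 groups did not overlap. The mean fell from 995 ± 201 (SD, n = 5) to 532 ± 135 CPM (SD, n = 4), and the log2 fold change was -0.90 ± 0.19 (SE), with an adjusted p of 0.00119.

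Cebpb, also of 1 exon, lies at chr2:167688915-167690418 on the plus strand. For this gene WT 1 to 5 gave 134.8, 74.75, 136.6, 129.5 and 135.1 CPM, and OGT-deficient 1 to 4 gave 48.65, 84.35, 52.95 and 82.94 CPM. WT 2 was the only WT library below OGT-deficient 2 and 4. The log2 fold change was -0.86 ± 0.21 (SE; adjusted p = 0.00285). This value is uncertain, since the opposite-strand gene Tmem189 covers 20.7% of its exonic bases and the use of strand in counting is not given in the sources used here. Tmem189 itself had a log2 fold change of -1.12, from 17.4 ± 1.17 to 8.002 ± 0.355 CPM.

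The balance of Cebpa to Cebpb was compared within each library, where no scaling factor enters. From WT 1 to 5 came 9.41, 11.7, 8.43, 6.75 and 6.02 Cebpa reads per Cebpb read, and OGT-deficient 1 to 4 had 6.89, 7.30, 10.5 and 7.53. The groups overlapped over most of their range. The mean log2 ratio was 3.04 in WT and 2.99 in OGT-deficient liver, a difference of -0.05 with p = 0.81 in a two-sided exact permutation test, whose smallest possible p here is 0.0159. The difference ran from -0.18 to 0.07 as single libraries were left out, so its direction was not settled, and the test does not show the ratios to be equal.

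The ONECUT proteins act with HNF4A and the FOXA proteins in hepatoblasts, and their levels influence whether these become hepatocytes or bile duct cells. Onecut1, also called HNF6, lies at chr9:74861921-74891781 on the plus strand. WT 1 to 5 gave 70.68, 38.67, 237.9, 62.56 and 44.71 CPM, and OGT-deficient 1 to 4 gave 13.97, 83.22, 16.1 and 57.8 CPM. Variation within groups was large, with a coefficient of variation of 91.5% in WT and 78.7% in OGT-deficient liver, and OGT-deficient 2 exceeded 4 WT libraries. The log2 fold change was -1.09 ± 0.61 (SE; adjusted p = 0.139), so Onecut1 was not called. Without WT 3 the value was -0.34 (adjusted p = 0.554), and without OGT-deficient 2 it was -1.65 and was called (adjusted p = 0.0448).

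Onecut2, on chromosome 18, was steadier. Its levels over WT 1 to 5 were 106, 91.17, 131.3, 103.3 and 120.7 CPM, and OGT-deficient 1 to 4 gave 96.66, 89.49, 85.76 and 93.12 CPM. Its means were 111 ± 15.7 (SD, n = 5) and 91.3 ± 4.69 CPM (SD, n = 4), and the log2 fold change was -0.28 ± 0.10 (SE), with an adjusted p of 0.0336. The call was lost with upper-quartile scaling (-0.15, adjusted p = 0.217) and when genes needed CPM 1 in at least 4 libraries (-0.25, adjusted p = 0.0532), and the direction turned with library totals alone (0.06, adjusted p = 0.638). It was also lost without WT 3 (adjusted p = 0.082), WT 5 (0.0786), OGT-deficient 2 (0.0615) or OGT-deficient 3 (0.0973).

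Prox1, a homeodomain protein needed for hepatoblast migration and a partner of HNF4A, lies at chr1:190118035-190170714 on the minus strand. Libraries WT 1 to 5 gave 83.72, 86.4, 64.8, 97.17 and 91.51 CPM, and OGT-deficient 1 to 4 gave 48.06, 39.92, 49.69 and 37.77 CPM. The highest OGT-deficient library stayed below the lowest WT library, WT 3. The mean fell from 84.7 ± 12.3 (SD, n = 5) to 43.9 ± 5.89 CPM (SD, n = 4), 51.8% of WT. Its log2 fold change of -0.95 ± 0.12 (SE) had the smallest adjusted p of the 9 factors (3.1e-05). Prox1 also marks lymphatic endothelium, whose 8 tested markers held 4 higher and 1 lower, where 31.6% and 29.4% of all tested genes were. Ccl21a was at 0 in all libraries. That 0 is uncertain, since 71.6% of its 50-base stretches are shared with other listed genes. The summed level of the lymphatic markers was 191.1 to 276.7 CPM in WT and 218.0 to 297.1 CPM in OGT-deficient liver. Reln, which is also on the stellate list, rose from 63.6 ± 14.5 to 107 ± 10.7 CPM within that sum, while Nr2f2 fell by 0.62 and Flt4 had a log2 fold change of -0.38 (adjusted p = 0.159). The part of lymphatic cells in the level of Prox1 was not tested.

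**Figure D2:**
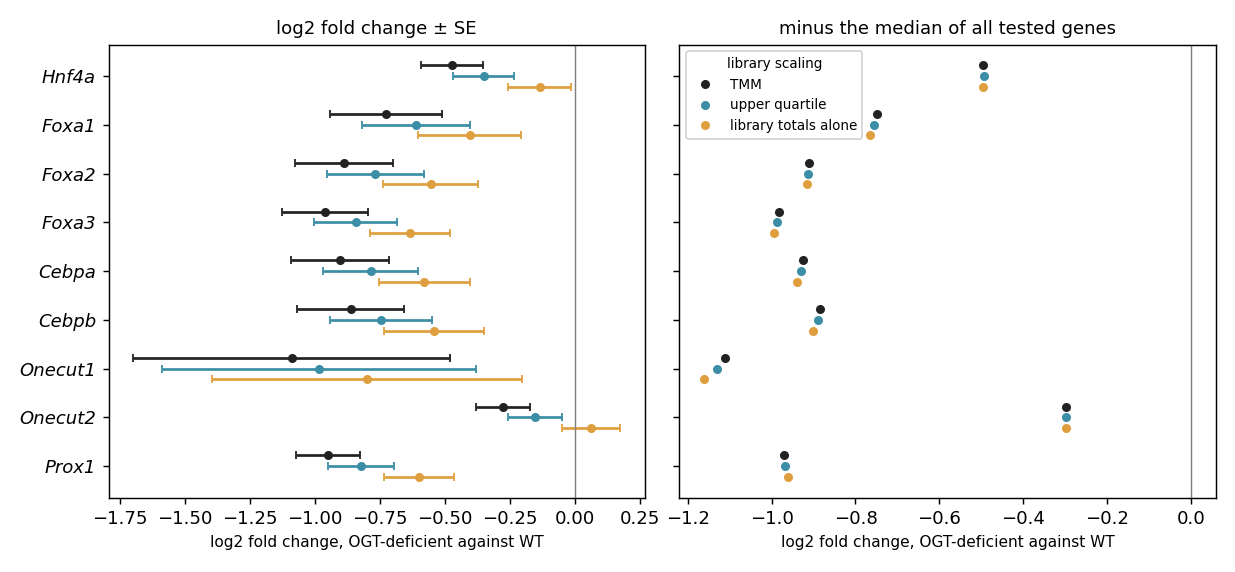
Left, log2 fold change of each factor (OGT-deficient against WT) with its SE under trimmed mean of M-values (TMM), upper-quartile and library-total scaling. Right, the same values minus the median of all tested genes, where the 3 scalings nearly coincide by construction and Onecut2 lies nearest to 0.

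The size of these changes depends on the scaling between libraries. The median log2 fold change of all tested genes was 0.02 with TMM scaling, 0.14 with upper-quartile factors and 0.36 with library totals alone. The share of called genes that were higher was 51.8%, 62.5% and 78.5% in turn. Relative to that median, Hnf4a was at -0.50 to -0.49, Prox1 at -0.97 to -0.96, Cebpa at -0.94 to -0.92 and Onecut2 at -0.30. A change of scaling shifts all genes by nearly the same amount, so these values agree by construction and say nothing of stability. With library totals alone, 5 of the 9 factors were called lower, as were 2014 of all 14104 tested genes.

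Within libraries, each factor was also expressed as a percentage of the Hnf4a count. For all 8 other factors the groups overlapped. Cebpa was 117 to 166% of the Hnf4a count in WT libraries and 76.8 to 130% in OGT-deficient libraries. Foxa3 was 7.10 to 10.9% and 4.504 to 7.95%, and Prox1 8.55 to 16.1% and 7.72 to 11%. The Onecut2 mean was the only one to be higher in OGT-deficient liver, at 18.7 ± 3.12% (SD, n = 4) against 16.2 ± 3.16% (SD, n = 5).

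**Figure D3:**
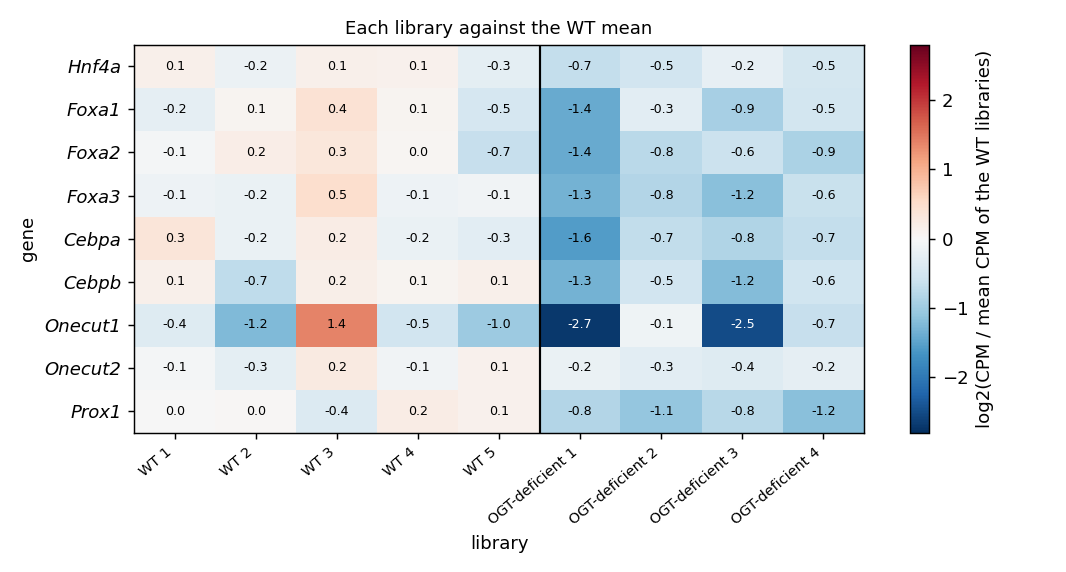
Log2 of each library's CPM over the mean CPM of the WT libraries, for 9 factors (rows) and 9 libraries (columns), with blue below and red above that mean. OGT-deficient 1 is the lowest library for 7 of the 9 factors, and the Onecut1 row has the widest range.

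Several factors ranked the libraries alike. WT 3 was the highest WT library for 6 of the 9 factors, while it was highest for 18.3% of all tested genes. OGT-deficient 1 was the lowest of all 9 libraries for 7 of the 9 factors, against 17.8% of tested genes. That share also covers genes that rose, while all 9 factors had a lower mean in OGT-deficient liver. It is therefore too low a background for factors that fell. OGT-deficient 1 and 3 were both below OGT-deficient 2 and 4 for Foxa1, Foxa3, Cebpa, Cebpb and Onecut1, a pattern found in 22.3% of tested genes, and both above them for Prox1 alone. The summed level of cholangiocyte markers was 320.3, 185.6, 305.1 and 270.3 CPM in OGT-deficient 1 to 4, highest in OGT-deficient 1 and 3. Of these sums, 170.4, 112.6, 189.8 and 155.1 CPM were Spp1, which is also on the macrophage list. Without Spp1, the sums of OGT-deficient 3 and 4 would be nearly equal. Summed hepatocyte markers were 53962, 70530, 59731 and 67326 CPM in OGT-deficient 1 to 4, lowest in OGT-deficient 1 and 3. Of these sums, Alb made up 29078, 36757, 31865 and 36266 CPM. The part of cell composition in the levels of the factors was not tested.

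By pattern over the 9 libraries, the genes most like each factor were found from the root mean square (RMS) difference of centred log2 CPM among 9503 genes. Hnf4a was closest to Lzts3 (0.0877) and Slc38a7 (0.092), and Cebpa to Dexi (0.113) and Zfp628 (0.119). Foxa1 was closest to Ung (0.194), Foxa2 to Irf2bpl (0.16) and Gpr137 (0.164), and Foxa3 to Rsph3b (0.138) and Pdk2 (0.148). Pdk2, a kinase that restrains pyruvate dehydrogenase, was also the second closest to Cebpb (0.211), after Prob1 (0.198). Prox1 was closest to Dcun1d4 (0.106) and Arrdc4 (0.111), and Onecut2 to Ebna1bp2 (0.0787) and Gopc (0.0789). Onecut1 had no close match, with Rnf217 at 0.637 and Slc25a30 at 0.645. Among the factors themselves, Foxa1 and Foxa2 (0.243), Foxa3 and Cebpa (0.245) and Hnf4a and Onecut2 (0.25) were each other's nearest, at nearly the same distance. Many other genes were closer to each, and the ranks among the genes searched differed widely. Foxa2 ranked 29 for Foxa1, and Foxa1 ranked 43 for Foxa2. Cebpa ranked 216 for Foxa3, and Foxa3 ranked 151 for Cebpa. Onecut2 ranked only 2212 for Hnf4a, and Hnf4a only 3482 for Onecut2. The RMS difference includes the difference between WT and OGT-deficient liver.

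Genes around the 9 factors were examined in lists from general knowledge of the liver, made with earlier results of these data known. Several genes stand in more than 1 list. This was so for 12 of 28 listed HNF4A targets, 10 of 14 FOXA targets, 12 of 22 C/EBP targets and 10 of 15 hepatocyte markers. The results of these lists are therefore not separate from one another. The counts are to be read beside the 29.4% of all tested genes called lower and the 31.6% called higher. Of 20 other liver-enriched transcription factors and HNF4A partners, 12 fell and 2 rose (median log2 fold change -0.53). Hlf, a circadian leucine zipper factor, fell from 76.5 ± 11.5 to 28.5 ± 2.83 CPM (-1.42), and Klf15, a fasting-responsive zinc finger factor, from 171 ± 31.9 to 67.6 ± 9.26 CPM (-1.34). Nr5a2, a nuclear receptor of bile acid synthesis, fell by 0.78. Nr1i3, the xenobiotic receptor CAR, fell by 2.90 but is uncertain, since the opposite-strand gene Tomm40l covers 74.9% of its exonic bases. Against the majority, Ppargc1a, a coactivator of fasting metabolism, rose by 0.52 and Tox3 by 2.77 from a very low level of 0.0847 ± 0.0835 CPM.

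Genes related to the 9 factors were followed in a pair of lists, where over all tested genes 29.4% were called lower and 31.6% higher. Of 7 tested relatives outside the forkhead family, 2 rose and none fell: Cebpe, a C/EBP gene of granulocytes, went from 12.1 ± 2.86 to 33.4 ± 6.30 CPM (1.47), and Ddit3, a stress-induced C/EBP relative, rose by 1.07. Hnf4g had a log2 fold change of -0.73 (adjusted p = 0.0789) at under 1 CPM, and Cebpd one of 0.38 (adjusted p = 0.0963). Of 18 other forkhead genes, 2 fell and 5 rose with library totals alone, where 2014 of all 14104 tested genes fell and 7372 rose. With TMM scaling, 7 of the 18 fell and 3 rose. Foxo4 fell by 1.46 and Foxj2 fell by 0.70, while Foxj1, the ciliogenesis factor, rose by 3.39 and the proliferation factor Foxm1 by 2.15. Foxs1 rose by 2.12, from 0.116 ± 0.108 to 0.551 ± 0.199 CPM.

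Transcription factors of bile ducts and progenitors mostly rose. Of 14 tested, 11 rose and 1 fell (median log2 fold change 1.45). Tead1, the DNA-binding partner of YAP, rose from 10.4 ± 1.15 to 25.8 ± 1.93 CPM (1.31). Ehf rose by 3.57, Glis3 by 2.92 and Klf5 by 4.54, all from under 1 CPM in WT. The single call in the lower direction was lost with library totals alone. Beside these, 13 of 14 cholangiocyte markers rose, with summed levels of 52.4 to 85.5 CPM in WT and 185.6 to 320.3 CPM in OGT-deficient liver. Much of these sums came from Spp1, which is also on the macrophage list, at 34.5 ± 9.85 and 157 ± 32.8 CPM. Whether cell composition accounts for part of the rise of these lists was not tested.

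Established targets were listed for HNF4A, the FOXA proteins and C/EBP. Of 27 HNF4A targets, 19 fell and 1 rose (median log2 fold change -0.68). Fabp1, the liver fatty acid binding protein, fell from 3452 ± 434 to 800.0 ± 97.4 CPM (-2.11). Ugt1a1 (-2.05) and Serpinc1, the antithrombin gene (-1.12), also fell, both uncertain because other listed genes cover 58.9% and 34.4% of their exonic bases. Apoa4, an apolipoprotein induced on fasting, rose by 3.37.

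Of 12 tested FOXA targets, 5 fell and 3 rose (median log2 fold change -0.20), where 29.4% and 31.6% of all tested genes did. The count of 3 was 2 or 1 in every fit that left out a library, and 1 without WT 1, WT 4, OGT-deficient 1 or OGT-deficient 4. Tdo2, which degrades tryptophan (-1.34), the albumin gene Alb (-1.14) and Cps1, the entry enzyme of the urea cycle (-0.66), fell. Afp, the fetal albumin relative, rose from 2.83 ± 0.483 to 12.5 ± 2.22 CPM (2.13).

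Of 21 C/EBP targets, 10 fell and 5 rose with library totals alone, where 2014 of all 14104 tested genes fell and 7372 rose. With TMM scaling, 11 of the 21 fell and 3 rose, with a median of -0.46. Slc10a1, the bile acid importer, fell by 1.21 on the log2 scale. Lcn2, an acute-phase iron carrier, rose by 2.76 and Il1rn by 1.51. Hepatocyte markers as a whole showed 12 of 14 lower and none higher with TMM scaling, with a median of -0.91, close in size to that of the 9 factors. Among them, Cyp2e1 (-2.37), Arg1 (-1.29) and Hpd (-1.30) fell.

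**Figure D4:**
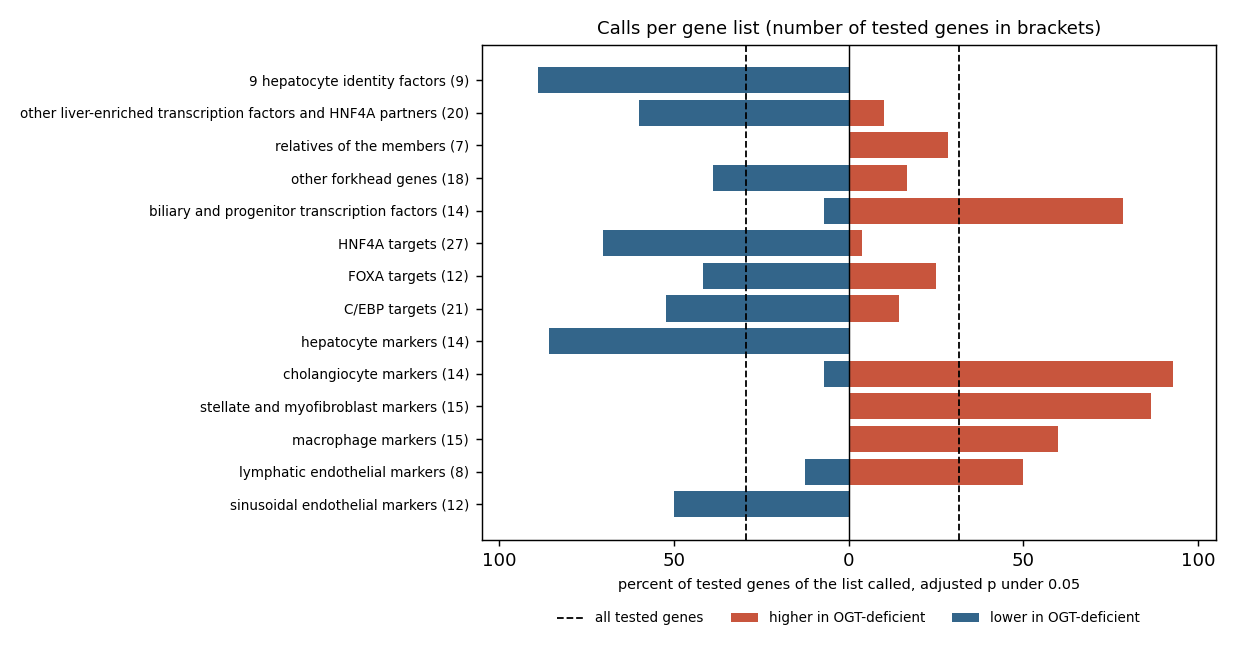
Percent of tested genes of each list called lower (blue, left) or higher (red, right) in OGT-deficient liver with TMM scaling, with dashed lines at 29.4% and 31.6% for all tested genes. The 9 factors, hepatocyte markers and HNF4A targets lie mostly to the left and the biliary lists mostly to the right.

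Other cell types were followed by their own markers, beside 29.4% lower and 31.6% higher over all tested genes. Stellate and myofibroblast markers rose in 13 of 15, with summed levels of 254.1 to 526.7 CPM in WT and 1067 to 1439 CPM in OGT-deficient liver. Lum rose by 1.93, Cygb by 1.63, Tagln by 1.38 and Acta2 by 2.53 on the log2 scale. Macrophage markers rose in 9 of 15, with summed levels of 494.6 to 709.1 CPM in WT and 658.6 to 968.1 CPM in OGT-deficient liver. Among them were Gpnmb (5.01), Trem2 (2.48), Cd9 (2.09) and Spp1 (2.18), the last also on the cholangiocyte list. With TMM scaling the other 6 were not called: Clec4f (0.03), Cd5l (0.30), Adgre1 (0.27), Vsig4 (0.11), Csf1r (0.11) and Timd4 (-0.39). Within the macrophage sum, mean Spp1 went from 34.5 (WT) to 157 CPM (OGT-deficient), and mean Cd9 from 16.83 to 71.75 CPM. Sinusoidal endothelial markers fell in 6 of 12, among them Bmp2 (-0.93), Clec4g (-0.59), Dnase1l3 (-0.54) and Oit3 (-0.46). That count was 3 without WT 1, WT 3 or OGT-deficient 1, 3 with upper-quartile factors and 2 with library totals alone. Of all 14104 tested genes, 3259 were called lower with upper-quartile factors and 2014 with library totals alone. Their summed level was 630.2 to 798.2 CPM in WT libraries and 554.7, 661.8, 572.1 and 352.6 CPM in OGT-deficient 1 to 4, lowest in OGT-deficient 4. Of the lymphatic markers, Reln (0.75), Mmrn1 (2.41) and Pdpn (1.73) rose, and Nr2f2 fell by 0.62. The part that these shifts in marker levels have in the lower levels of the 9 factors was not tested.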

How the data were processed

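Per the labels, total RNA of liver tissue was extracted with TRIzol, and the design text gives as many mice as libraries, so each was taken as a separate mouse. Per the submitters' processing notes, the tools were HTSeq 0.9.1 and TopHat2 2.1.0, and the build mm10 (GRCm38). The authors deposited whole-number read counts per gene symbol. Annotation release and strand use: not given in the sources used here. The 5 summary lines per table entered neither library totals nor fits. Reads outside genes made up 8.95 to 10.7% and reads overlapping several genes 1.78 to 2.17% of uniquely aligned reads. A level of 3 counts corresponds to 0.0554 to 0.0928 CPM. Chi-square per degree of freedom of the 16 within-group pairs was 23.9 to 135, so none was a duplicate.

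Counts were filtered (filterByExpr), scaled by TMM and fitted on group only in edgeR 4.0.16 (R 4.3.3), using its quasi-likelihood F test. Benjamini-Hochberg adjustment ran over 14104 genes, and calls were made at 0.05. CPM uses TMM-scaled totals. The log2 CPM used for likeness and for the correlations of libraries has a prior count of 2. The SE of a log2 fold change is its absolute value over the square root of the F statistic. Exact permutation tests used scipy 1.17.1. Positions, exon lengths and overlaps come from GENCODE mouse release 21, and promoters from RefSeq (GRCm38.p6).

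Named genes were all 9 factors and, from each list, the 4 smallest p and up to 3 called against the majority. Some genes that this rule took are not reported here. Likeness used tested genes of at least 5 CPM without predicted models. The factors and lists were chosen with earlier results of these data known. The test was also run on simulated counts for this comparison (12739 genes). It recovered 50.8% (34 of 67), 86.6% (58 of 67) and 100% (66 of 66) of genes changed by 0.5, 1 and 2 on the log2 scale, with 9 false calls. Only 200 genes were changed in the simulation, while 61.1% of tested genes were called in the data. These rates therefore need not hold for the data. The alternatives were other scalings and filters, DESeq2 1.42.0, limma 3.58.1 voom, a replicate block, leaving out the 30 most abundant genes and leaving out each library. Scaling by library totals alone was added after seeing the data.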

Additional observations from a re-analysis of the deposited data

Results flagged for a closer look

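A library stood apart from the rest of its group, by Dixon's test at the 95% level, in 3 of the 18 groups formed by the 9 factors and 2 genotypes; chance flags about 1 in 20. Foxa3 in WT 3 was 82.42 CPM, with the next WT library at 56.16. Onecut1 in WT 3 was 237.9 CPM, with the next at 70.68. Cebpb in WT 2 was 74.75 CPM, with the next at 129.5. The Foxa3 and Cebpb calls held without each library in turn, with log2 fold changes of -1.12 to -0.82 and -1.01 to -0.75.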

How the results depend on the processing

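Hnf4a, Foxa1, Foxa2, Foxa3, Cebpa, Cebpb and Prox1 were called lower without any single library, and Onecut2 in 5 of 9 such fits. In these fits the log2 fold change of Onecut1 ran from -1.65 to -0.34, of Onecut2 from -0.34 to -0.21, and the log2 ratio of Cebpa to Cebpb from -0.18 to 0.07, turning positive without WT 2 (0.0748) or OGT-deficient 1 (0.02).

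Upper-quartile factors gave -0.15 for Onecut2, 2 HNF4A targets, 5 C/EBP targets and 1 hepatocyte marker higher, and 3 sinusoidal markers lower. Over all 14104 tested genes, this scaling called 5435 higher and 3259 lower. Library totals alone gave -0.13 for Hnf4a, -0.40 for Foxa1 and 0.063 for Onecut2. They called 5 of the 9 factors lower. Over all 14104 tested genes, they called 2014 lower and 7372 higher. They also gave as higher 4 other liver factors, 5 relatives, 5 forkhead genes, 3 HNF4A targets, 5 C/EBP targets, 1 hepatocyte marker, 14 macrophage markers and 1 sinusoidal marker, and as lower 2 forkhead genes, 2 sinusoidal markers, 0 biliary factors and 0 cholangiocyte markers. A filter of CPM 1 in 4 libraries gave -0.25 for Onecut2, which was no longer called (adjusted p = 0.0532), with 1 other liver factor and 2 lymphatic markers higher. DESeq2 called 2 HNF4A targets and 1 hepatocyte marker higher, and limma voom 1 macrophage marker lower. Without the 30 most abundant genes, which takes members out of the lists, 1 FOXA target was higher, 2 lower, and 6 hepatocyte markers were lower. The cause of the other shifts was not tested.

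With the replicate number as a block (replicate block), Onecut2 was -0.23 and not called (adjusted p = 0.12), 1 other liver factor was higher, 1 macrophage marker lower and 2 lymphatic markers lower, and calls over all genes went from 8614 to 7869. Correlations of same-numbered libraries were 0.05, -0.10, 0.02 and 0.10, and those of differently numbered libraries ran from -0.17 to 0.13. Such values cannot show whether same-numbered mice were paired, which the labels do not state.

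Leaving out libraries singly, calls higher ran from 1 to 2 for other liver factors, 2 to 3 for relatives, 1 to 2 for HNF4A targets, 1 to 2 for FOXA targets, 2 to 3 for C/EBP targets, 0 to 1 for hepatocyte markers and 0 to 1 for sinusoidal markers. Calls lower ran from 1 to 2 for biliary factors, 0 to 1 for macrophage markers and 3 to 7 for sinusoidal markers.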

Other observations

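The genes next to the 9 factors on their chromosomes did not share a direction: of 13 tested, 6 were called lower and 3 higher, where 29.4% and 31.6% of all tested genes were. Next to Hnf4a, Ttpal rose by 0.51 on the log2 scale (adjusted p = 0.00145). On either side of Foxa3, Irf2bp1 fell by 0.69 and Sympk, only 839 bases away, rose by 0.56. Cebpg, the C/EBP gene beside Cebpa, had a log2 fold change of -0.09 (adjusted p = 0.409). On either side of Onecut1, Fam214a fell by 1.11 and the predicted gene Gm16551 fell by 0.92. Beside Onecut2, Fech, the last enzyme of heme synthesis, fell by 0.63. Mipol1 beside Foxa1 fell by 0.92, Smyd2 beside Prox1 by 0.31, and Ube2v1 beside Cebpb rose by 0.20.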
